A study of Mus musculus with 12 samples.

Results

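Midkine (Mdk) and pleiotrophin (Ptn) are a family of secreted growth factors, and 5 genes encode cell-surface proteins reported to bind them: Ptprz1, Alk, Sdc3, Lrp1 and Ncl. These 7 genes, of 18911 in the count table, were followed across neural progenitor cells (mNPCs) of 4 genotypes with 3 RNA-Seq libraries each. Mdk was picked because its counts were lower in Kmt2a+/LSL than in Kmt2a+/+ mNPCs, so its difference between those genotypes is given as a description with no test. The other 6 genes were added by their place in the pathway, though with earlier results of these data known. All 7 passed the filter on low counts. KMT2A is a histone H3K4 methyltransferase, and loss of 1 copy causes Wiedemann-Steiner syndrome.

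The mNPCs were cultured from the hippocampus of C57BL/6J pups at postnatal day 0 and grown with FGF-2, EGF and heparin. Kmt2a+/+ cells (called wild-type below) carried neither the LSL allele nor Cre. Kmt2a+/LSL cells (titled Kmt2a KO in the sample labels) carried 1 Kmt2a allele with a floxed STOP cassette that truncates its transcript, so they are heterozygous and keep 1 intact copy. Nes-Cre+/- Kmt2a+/+ cells (Cre-only) carried the nestin-Cre transgene alone, and Nes-Cre+/- Kmt2a+/LSL cells (Cre-LSL) carried both, which excises the cassette only in cells where the nestin promoter has been active. All libraries were made from poly(A) RNA, and the study's methods call the libraries of a genotype biological replicates without saying whether each came from its own pup, so the p-values measure the spread between these libraries.

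Midkine and pleiotrophin are small heparin-binding proteins that are abundant in the developing brain and act on radial glia, growing neurites and oligodendrocyte precursors. Both bind the chondroitin sulfate chains of PTPRZ1, a receptor tyrosine phosphatase of neural progenitors and glia that pleiotrophin binding inactivates. ALK is a receptor tyrosine kinase, syndecan-3 (Sdc3) a neural heparan sulfate proteoglycan, LRP1 a large endocytic receptor, and nucleolin (Ncl) a nucleolar protein that also reaches the cell surface.

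The libraries held 18280008 to 28596919 estimated counts, and levels are given as normalized CPM, counts scaled to the TMM-adjusted library size. Kmt2a itself was at 289, 300.3 and 281 normalized CPM in wild-type, 166, 166 and 167 in Kmt2a+/LSL, 283, 310.0 and 299 in Cre-only and 273, 284 and 259 in Cre-LSL, so it was lowest in the 3 libraries labelled as carrying the LSL allele without Cre. Neural progenitor markers were high, with 8 of 8 (Nes, Sox2 and others) counted in every library and a summed level of 5510 to 13000 normalized CPM. Neuron, astrocyte and oligodendrocyte-lineage markers summed to 1020 to 1920, 3110 to 5940 and 494 to 1420, while 5 microglial markers stayed between 0.122 and 1.05 and 6 vascular and meningeal markers between 1.96 and 11.3. Map2 made up most of the neuron sum in every genotype, at means of 1280 to 1470 normalized CPM. The other neuron markers were at most at 28.2 in a library (Tubb3). In bulk RNA, fewer cells of a type and less RNA per cell cannot be told apart. Wild-type replicate 1 stood apart: its median Pearson correlation with the other 11 libraries was 0.918, against 0.969 to 0.982 for each of those, and its deviation ran with transcript GC content (Spearman rho −0.795 across 11622 genes). The remaining wild-type libraries deviated with GC content the other way (rho 0.489 for replicate 2 and 0.827 for replicate 3, the latter being the highest of the 12), and the values without replicate 1 rest on them. Over the other 9 libraries rho was −0.624 to 0.622. Single genes carried its marker sums, which were the highest of the 12 for progenitors (Fabp7 at 8960 of 13000) and neurons (Map2 at 1870 of 1920), while Hes5 at 2.14, Sox2 at 226, Tubb3 at 3.03 and Rbfox3 at 0.476 normalized CPM, of the same lists, were at their lowest of the 12 there. It also held the lowest sum of the oligodendrocyte-lineage markers (494), and the part of these markers in the results was not tested. Values against wild-type are therefore also given without it. Each fit estimates 1 spread per gene over all its libraries, so the SEs of comparisons that hold no wild-type library carry its spread too.

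Sequences near the start sites are shown for the pair of members at the ends of the range of CG content, since KMT2A carries a domain that binds unmethylated CG dinucleotides. Of the 7 members, 6 matched an entry of the RefSeq promoter sequences (GRCm38.p6, 250 bases before to 50 after the start), and Mdk did not. Each is written 5′ to 3′ on the strand of its gene, with every CG in capitals. CG reads the same on both strands and its matches do not overlap. The Ptn sequence (chr6:36810130-36810429, minus strand) had 6, and 56.4% of the 32851 promoters held as many or more. The Sdc3 sequence (chr4:130792287-130792586, plus strand) had 44, and 2.2% of the promoters held as many or more.
Ptn: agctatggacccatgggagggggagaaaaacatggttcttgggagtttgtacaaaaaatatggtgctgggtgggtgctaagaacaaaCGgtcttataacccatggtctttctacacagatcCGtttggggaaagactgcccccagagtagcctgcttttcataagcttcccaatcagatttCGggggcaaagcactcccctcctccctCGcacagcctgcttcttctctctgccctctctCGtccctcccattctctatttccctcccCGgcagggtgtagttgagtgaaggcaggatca
Sdc3: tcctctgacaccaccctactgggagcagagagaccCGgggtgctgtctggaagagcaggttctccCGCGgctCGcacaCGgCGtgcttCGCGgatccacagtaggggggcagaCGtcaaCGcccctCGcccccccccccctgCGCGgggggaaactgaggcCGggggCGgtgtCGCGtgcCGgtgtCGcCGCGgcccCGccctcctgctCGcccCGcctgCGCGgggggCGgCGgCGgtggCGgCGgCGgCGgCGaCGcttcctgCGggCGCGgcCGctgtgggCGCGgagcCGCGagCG
Between them lay Lrp1 with 16, Alk with 28, Ptprz1 with 29 and Ncl with 33, against a median of 7 over all promoters. These counts describe the sequence and say nothing of binding or methylation in the mNPCs.

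Per kilobase of merged exons, Ptn was the most abundant of the 7 genes and Alk was barely detected. Mean levels over the 12 libraries were 971 ± 123 (SD) normalized CPM per kilobase for Ptn, 265 ± 82.8 for Sdc3, 122 ± 28.7 for Ptprz1, 68.2 ± 22.1 for Lrp1, 28.6 ± 11.1 for Mdk, 21.0 ± 8.5 for Ncl and 0.0455 ± 0.0308 for Alk. Ptn lay above every other gene in all 12 libraries, and Alk below every other gene. From Sdc3 to Ncl, each gene overlapped over the libraries with the next in this order. Ranges were 47.6 to 363 for Sdc3, 57.3 to 163 for Ptprz1 and 24.1 to 105 for Lrp1. Those of Mdk and Ncl were 14.3 to 47.3 and 11.6 to 45.2. Merged exons span all annotated isoforms, and which of these were expressed was not measured, so levels of different genes compare only roughly. Per kilobase of the longest transcript, the order of the means was the same, with Ptprz1 at 215, Mdk at 35.9 and Ncl at 26.1.

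**Figure D1:**
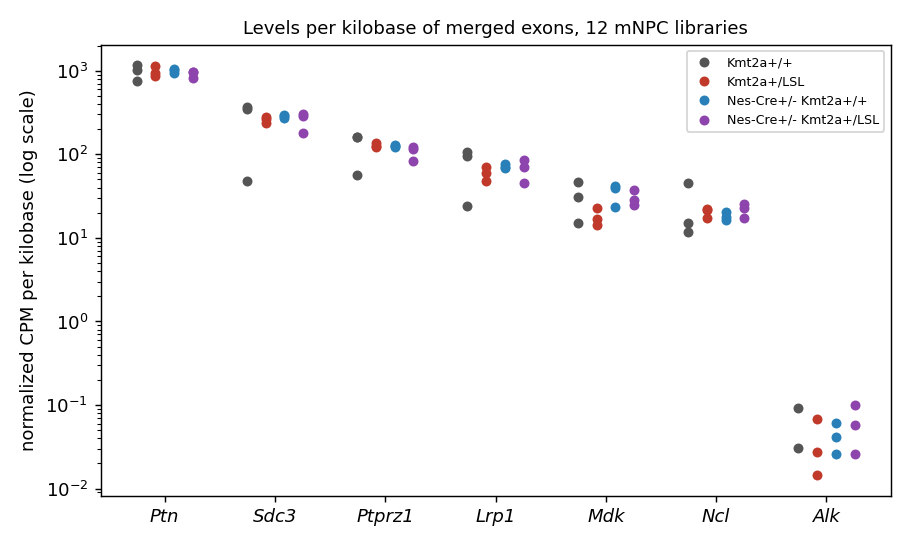
Level of each gene per library (y axis, normalized CPM per kilobase of merged exons, log scale), with points coloured by genotype and genes ordered by their mean over 12 libraries. Ptn stands above the rest near 971, Mdk and Ncl overlap near 28.6 and 21.0, and Alk is at or below 0.0999, with the wild-type library at 0 counts not drawn.

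Mdk (ENSMUSG00000027239, GRCm38 chr2:91929805-91932297, minus strand) encodes midkine, the less abundant of the growth factors here. Its levels were 20.0, 62.6 and 40.4 normalized CPM in wild-type, 22.4, 30.1 and 18.9 in Kmt2a+/LSL, 31.1, 55.8 and 52.8 in Cre-only and 32.4, 37.3 and 50.2 in Cre-LSL (replicates 1, 2 and 3). All 3 Kmt2a+/LSL libraries were below every library of the Cre-carrying genotypes, and they overlapped with wild-type only through its replicate 1. Together with that library they held the lowest 4 of the 12 values. Genotype means were 41.0 ± 21.3, 23.8 ± 5.72, 46.6 ± 13.5 and 40.0 ± 9.16 (SD, n = 3 each).

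As a description of the contrast it was picked on, the log2 fold change of Mdk in Kmt2a+/LSL against wild-type was −0.79 (SE 0.39). Without wild-type replicate 1 it was −1.11 (SE 0.26), and without replicate 2, the highest of the 12 libraries, it was −0.36. Against Cre-only the value for Kmt2a+/LSL was −0.97 (SE 0.38). This comparison uses the same Kmt2a+/LSL libraries as the contrast Mdk was picked on, as does the next, so both are descriptions with no test.

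With nestin-Cre the level was higher than in Kmt2a+/LSL in 3 of 3 libraries, by 0.74 on the log2 scale (SE 0.39). Cre-LSL against Cre-only, which shares no library with the picking contrast, gave −0.22 (SE 0.38, edgeR adjusted p = 1) with overlapping libraries. Cre alone gave 0.18 (SE 0.38) over wild-type, and −0.15 (SE 0.29) without wild-type replicate 1. The difference between the LSL effects with and without Cre was 0.56 (SE 0.53), and 0.88 (SE 0.39) without wild-type replicate 1, again as a description.

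**Figure D2:**
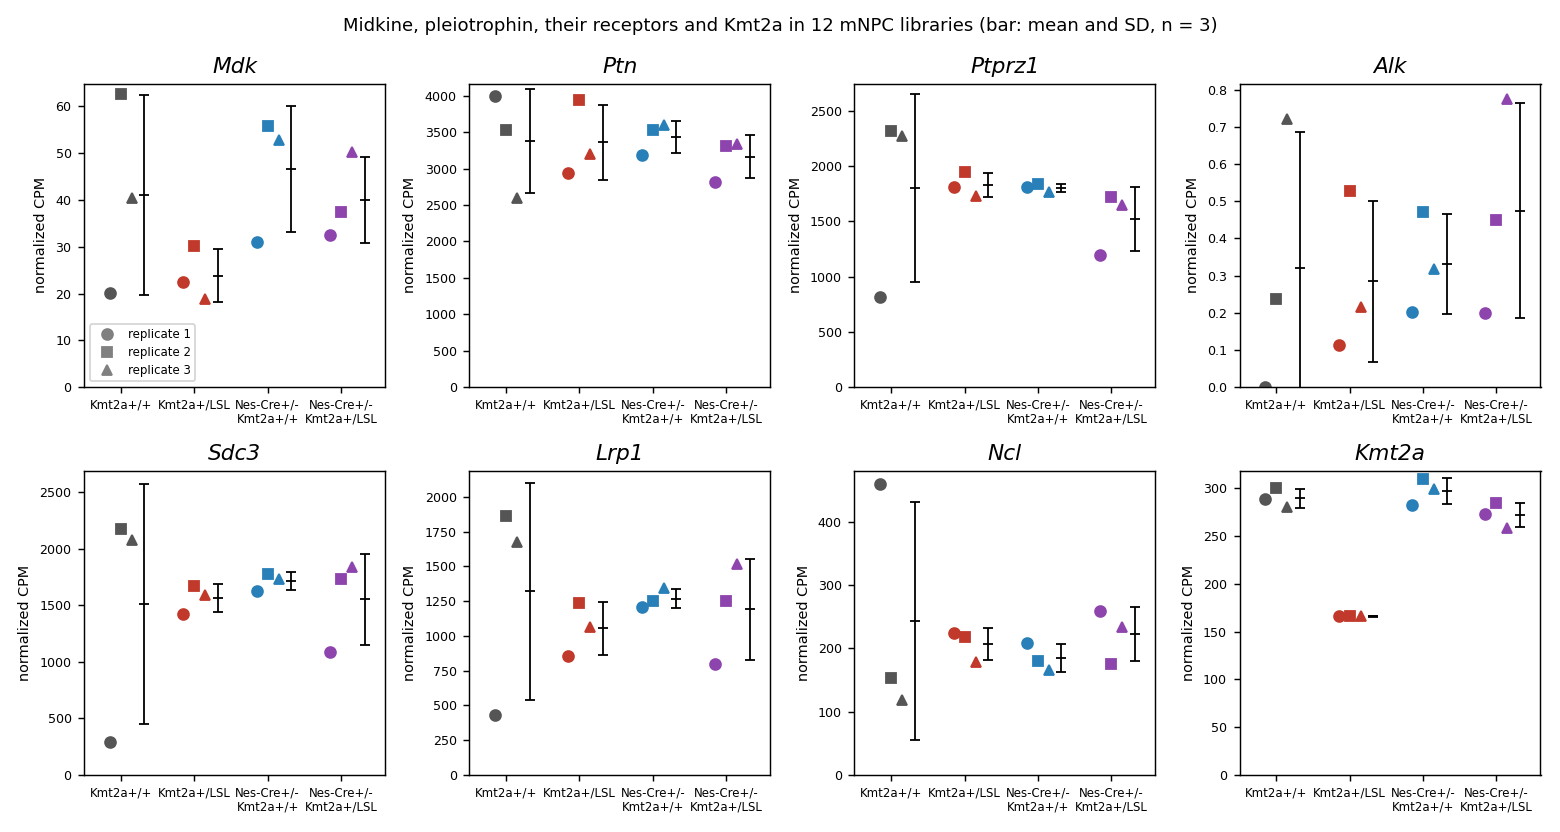
Normalized CPM (y axes, from 0) of the 7 genes and of Kmt2a in each library, by genotype, with marker shape for the replicate and a bar for the mean and SD (n = 3, cut at 0). Mdk is at 18.9 to 30.1 in Kmt2a+/LSL, below all 6 Cre-carrying libraries, wild-type replicate 1 is the lowest library for Ptprz1, Sdc3 and Lrp1, and it is the highest for Ptn and Ncl.

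Ptn (ENSMUSG00000029838, chr6:36714929-36810220, minus strand) encodes pleiotrophin and varied least of the 6 genes with counts in every library. It was at 4003, 3529 and 2598 normalized CPM in wild-type, 2946, 3939 and 3195 in Kmt2a+/LSL, 3187, 3532 and 3598 in Cre-only and 2821, 3317 and 3343 in Cre-LSL. All genotypes overlapped, and the highest library was 1.54 times the lowest. The log2 difference of Kmt2a+/LSL was −0.02 (SE 0.23) against wild-type and −0.03 (SE 0.20) against Cre-only (edgeR adjusted p = 1 in both), and without wild-type replicate 1 the former was 0.14 (SE 0.20). Values in the Cre genotypes were also within 1 SE of 0, with −0.09 (SE 0.23) for Cre-LSL against Kmt2a+/LSL, −0.12 (SE 0.20) against Cre-only and 0.03 (SE 0.20) for Cre alone, the last being 0.16 (SE 0.17) without wild-type replicate 1.

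The balance of the 2 ligands differed between libraries mainly through Mdk. Per kilobase, Ptn exceeded Mdk 77.0, 21.7 and 24.8 times in wild-type, 50.7, 50.5 and 65.1 times in Kmt2a+/LSL, 39.6, 24.4 and 26.3 times in Cre-only and 33.6, 34.3 and 25.7 times in Cre-LSL. The ratio was higher in every Kmt2a+/LSL library than in the other libraries, apart from wild-type replicate 1, which was the highest of all. Since Mdk was picked as low in Kmt2a+/LSL, this ratio carries no test.

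**Figure D3:**
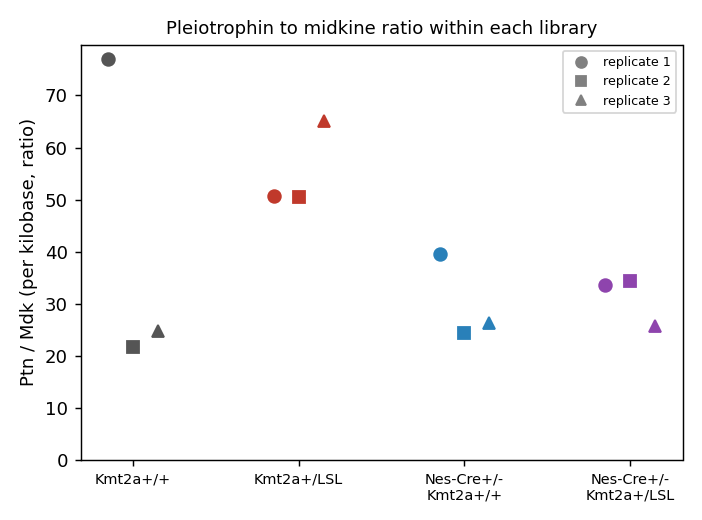
Ratio of Ptn to Mdk, each per kilobase of merged exons (y axis), in each library by genotype, with marker shape for the replicate. The Kmt2a+/LSL libraries lie at 50.5 to 65.1 and the Cre-carrying libraries at 24.4 to 39.6, while the wild-type libraries spread from 21.7 to 77.0.

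Ptprz1 (ENSMUSG00000068748, chr6:22875502-23052916, plus strand), the receptor phosphatase, lay lower in every Cre-LSL library than in every Kmt2a+/LSL or Cre-only library, but the differences did not pass the test. Its levels were 817, 2317 and 2269 normalized CPM in wild-type, 1808, 1948 and 1727 in Kmt2a+/LSL, 1809, 1838 and 1763 in Cre-only and 1195, 1723 and 1646 in Cre-LSL. The gap to the other genotypes was small, since the highest Cre-LSL library was just under the lowest Kmt2a+/LSL library. The log2 fold change was −0.26 (SE 0.36) against Kmt2a+/LSL and −0.25 (SE 0.32) against Cre-only (edgeR adjusted p = 1 and exact permutation p = 0.1 in both, the smallest that 3 against 3 libraries allow). The SEs fell to 0.16 and 0.14 without wild-type replicate 1, with values of −0.28 and −0.25. Without Cre-LSL replicate 1, whose deviation also ran against GC content (rho −0.624), the values were −0.12 and −0.10. Kmt2a+/LSL gave 0.01 (SE 0.36) against wild-type and −0.33 (SE 0.18) without wild-type replicate 1 (−0.09, SE 0.47, with all libraries and an offset for GC content), and 0.02 (SE 0.32) against Cre-only. Cre alone gave 0.00 (SE 0.32), and −0.35 (SE 0.15) without that library.

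Alk (ENSMUSG00000055471, chr17:71868972-72604627, minus strand), the receptor tyrosine kinase, was close to the limit of detection. The libraries held 0, 6 and 21 counts in wild-type, 3, 13 and 5 in Kmt2a+/LSL, 5, 11 and 8 in Cre-only and 4, 12 and 17 in Cre-LSL. A count of 0 allows up to 3 counts, which was 0.105 to 0.164 CPM at these depths, as a limit on counting error only. All genotypes overlapped, and no difference was detectable at this depth. The log2 difference of Kmt2a+/LSL against wild-type was −0.23 (SE 1.05) and moved between −1.02 and 1.1 as single libraries were left out. Leaving out wild-type replicate 1 gave −0.76 (SE 0.83). On the same strand 3 annotated genes overlap Alk, the snRNA gene Gm24736 among them, and on the other strand a pseudogene. Strand was not given for the counting.

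Sdc3 (ENSMUSG00000025743, chr4:130792537-130826319, plus strand), the syndecan whose start site holds the 44 CG shown above, was the most abundant receptor per kilobase. It was at 285, 2175 and 2075 normalized CPM in wild-type, 1426, 1670 and 1588 in Kmt2a+/LSL, 1625, 1778 and 1734 in Cre-only and 1087, 1734 and 1836 in Cre-LSL. Wild-type replicate 1 was 0.134 of the mean of the other wild-type libraries, which were the 2 highest of the 12. The log2 difference of Kmt2a+/LSL against wild-type was 0.04 (SE 0.59), and −0.44 (SE 0.21, edgeR adjusted p = 0.734) without that library. With all libraries and an offset for GC content it was 0.08 (SE 0.27). It was −0.13 (SE 0.53) against Cre-only, −0.01 (SE 0.59) for Cre-LSL against Kmt2a+/LSL and −0.14 (SE 0.53) against Cre-only. Without wild-type replicate 1 these were −0.13 (SE 0.17), −0.02 (SE 0.19) and −0.15 (SE 0.17). Cre alone gave 0.18 (SE 0.53), and −0.32 without wild-type replicate 1. The annotation places the antisense genes Gm12970 and Gm26716 over Sdc3, whose reads could not be told apart without strand.

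Lrp1 (ENSMUSG00000040249, chr10:127538161-127621148, minus strand), the endocytic receptor, followed Sdc3 closely over the libraries. Its levels were 427, 1865 and 1675 normalized CPM in wild-type, 858, 1234 and 1067 in Kmt2a+/LSL, 1209, 1250.0 and 1346 in Cre-only and 800.0, 1252 and 1520 in Cre-LSL. The wild-type libraries held both the lowest library and the 2 highest, and the other genotypes overlapped. Its fold change in Kmt2a+/LSL, on the log2 scale, was −0.34 (SE 0.48) against wild-type, −0.75 (SE 0.25, edgeR adjusted p = 0.734) without wild-type replicate 1 and −0.27 (SE 0.43) against Cre-only. It was 0.18 (SE 0.48) for Cre-LSL against Kmt2a+/LSL and −0.09 (SE 0.43) against Cre-only, with SEs of 0.23 and 0.20 for this pair without wild-type replicate 1. For Cre alone it was −0.06 (SE 0.43), and −0.49 without that library. With all libraries and the GC offset, Kmt2a+/LSL against wild-type was at −0.41 (SE 0.22). The antisense gene Gm16217 overlaps Lrp1.

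Ncl (ENSMUSG00000026234, chr1:86344719-86359400, minus strand), which encodes nucleolin, ran opposite to these receptors. It was at 461, 153 and 119 normalized CPM in wild-type, 225, 217 and 178 in Kmt2a+/LSL, 209, 180.0 and 166 in Cre-only and 258, 175 and 233 in Cre-LSL. Replicate 1 of wild-type was 3.39 times the mean of its other libraries, which were the 2 lowest of the 12. The direction of the Kmt2a+/LSL difference depended on that library, with a log2 fold change of −0.26 (SE 0.46) against wild-type and 0.61 (SE 0.20, edgeR adjusted p = 0.734) without it. With all libraries and the GC offset it was −0.01 (SE 0.23). The remaining values were 0.16 (SE 0.41) against Cre-only, 0.11 (SE 0.46) for Cre-LSL against Kmt2a+/LSL and 0.27 (SE 0.41) against Cre-only. Leaving that library out gave 0.17 (SE 0.17), 0.09 (SE 0.18) and 0.26 (SE 0.17). The sign turned for Cre alone too, from −0.40 (SE 0.41) to 0.44 without that library. Small nucleolar RNA genes lie within Ncl on the same strand.

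**Figure D4:**
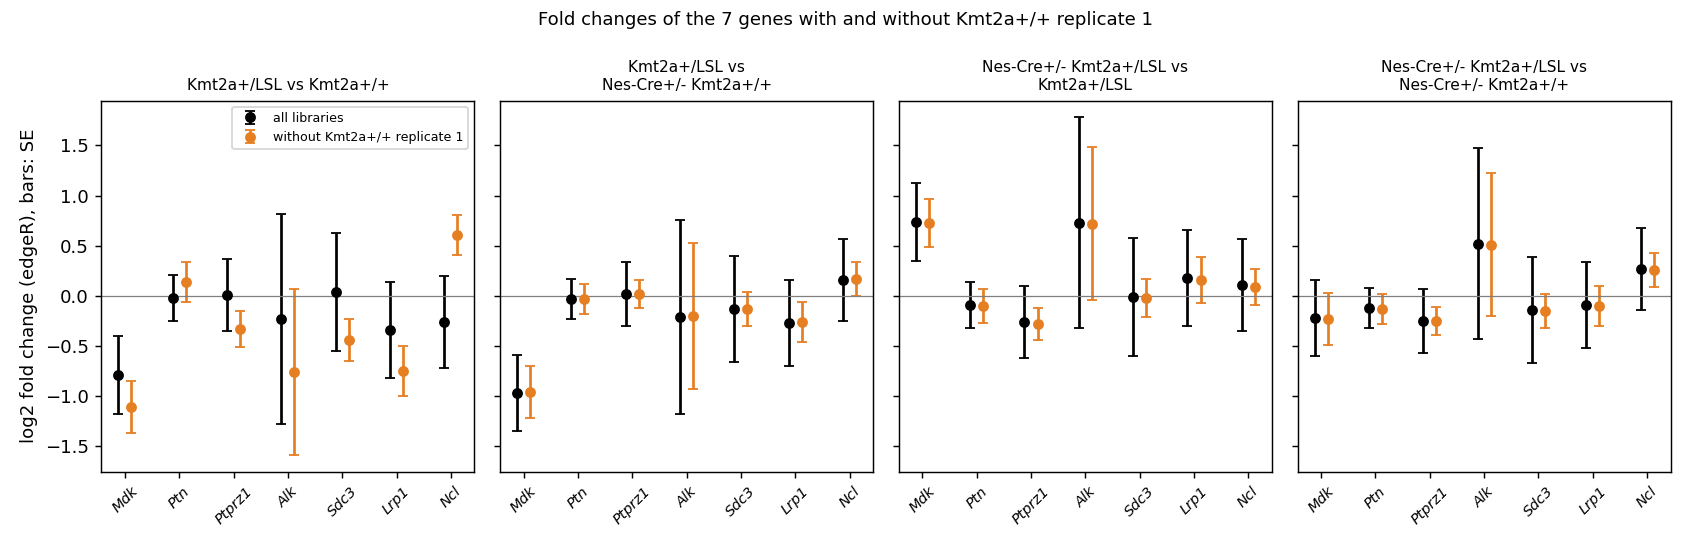
Log2 fold change of the 7 genes (y axis, edgeR, bars for the SE) in 4 comparisons, with all libraries (black) and without wild-type replicate 1 (orange). Against wild-type, leaving that library out moves Mdk from −0.79 to −1.11, Lrp1 from −0.34 to −0.75 and Ncl from −0.26 to 0.61, and in the other 3 panels the points change little while the SEs narrow.

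Over the 7 members, no gene was called in any of the comparisons by edgeR or by DESeq2 at an adjusted p under 0.05, and the 6 members other than Mdk had no unadjusted edgeR p under 0.05. The background was also near 0. In Kmt2a+/LSL against wild-type edgeR called 0% of 16655 genes (191 at an unadjusted p under 0.05) and DESeq2 0.0421%, a contrast that the choice of Mdk used. For Cre-LSL against Kmt2a+/LSL these were 0% (183) and 0.0361%, and against Cre-only 0% (190) and 0.0176%. Cre alone gave 0% (239) and 0.0176%, Kmt2a+/LSL against Cre-only 0.00586% (174) and 0.0235%, and the difference of the LSL effects 0% (295) and 0.0587%. Kmt2a itself, at −0.82 (SE 0.15) in Kmt2a+/LSL against wild-type, had an edgeR adjusted p of 1 (0.633 without wild-type replicate 1, DESeq2 adjusted p = 2.64e-09). Since edgeR did not call even this difference, the lack of a call for a member does not show that its level was unchanged.

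Counted by libraries that did not overlap, 1 of the 6 members other than Mdk separated Cre-LSL from Kmt2a+/LSL, Ptprz1 lower, against 7.13% of all genes. Only Ptprz1 of the 7 did so between Cre-LSL and Cre-only (6.68% of all genes), and 0 of the 6 between Kmt2a+/LSL and Cre-only (7.95%). Of all 7, 0 did in Kmt2a+/LSL against wild-type (4.06%) or for Cre alone (4.35%). Mdk separated Kmt2a+/LSL from both Cre-carrying genotypes, and from wild-type once its replicate 1 was left out, but it was picked as low in these Kmt2a+/LSL libraries and is not read against the background. Without wild-type replicate 1, the same 4 genes separated from wild-type in Kmt2a+/LSL (4 of the 6) and for Cre alone (4 of 7), with Ptprz1, Sdc3 and Lrp1 lower and Ncl higher. With 3 against 2 libraries 29.3% of all genes separated in each of these, which share the wild-type libraries.

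Over the 12 libraries, Ptprz1, Sdc3 and Lrp1 ran together and Ncl ran against them, with and without wild-type replicate 1. Pearson r of log2 CPM was 0.933 for Sdc3 and Lrp1, 0.933 for Ptprz1 and Sdc3 and −0.904 for Ptprz1 and Ncl, and without that library it was 0.948, 0.879 and −0.746. For Mdk and Ptn it was 0.0509, and 0.319 without that library, and for Mdk and Lrp1 it was 0.732 and 0.698. The libraries differ in depth, genotype and base composition, which each pair of genes has in common, so the values are descriptions. The GC content of the longest coding transcript was 57.2% for Mdk, 57.0% for Alk, 58.7% for Sdc3 and 57.9% for Lrp1, and 44.4% for Ptn, 44.5% for Ptprz1 and 42.8% for Ncl. In wild-type replicate 1 the 4 GC-rich members were low and Ptn and Ncl high, but Ptprz1, though GC-poor, was at 0.356 of the mean of the other wild-type libraries. With an offset for GC content in the fit, Mdk in Kmt2a+/LSL against wild-type was −0.96 (SE 0.27), again as a description.

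The wider pathway held 69 listed genes, and 0 of the 67 or 68 tested passed the test in either direction by edgeR or DESeq2 in any comparison, with 0 or 1 in each at an unadjusted edgeR p under 0.05. In Kmt2a+/LSL against wild-type, 38 had values below 0 and 29 above, with a median log2 fold change of −0.03, against −0.01 over all genes. With wild-type replicate 1 left out these were 45 and 22, with a median of −0.10 against 0.00. They were 44 and 24 (median −0.08) for Cre alone, which shares the wild-type libraries, and 31 and 37 (median 0.01) for Kmt2a+/LSL against Cre-only, where all libraries gave 33 and 35. For Cre-LSL against Kmt2a+/LSL these were 43 and 24 with a median of −0.05, against 0.00 over all genes. Among other receptors, the PTPRZ1 relative Ptprg was at −0.23 (SE 0.19) in Kmt2a+/LSL against wild-type, and at −0.10 without wild-type replicate 1. The ALK relative Ltk held 0 to 23 counts in a library.

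Of the other syndecans, Sdc1 was at 0.60 (SE 0.35), Sdc2 at −0.39 (SE 0.36) and Sdc4 at 0.17 (SE 0.23) in Kmt2a+/LSL against wild-type, and the glypican Gpc2, a midkine-binding heparan sulfate proteoglycan, at 0.16 (SE 0.51). The LDL-receptor relatives Lrp6 and Lrp8 were at −0.27 (SE 0.20) and −0.34 (SE 0.25). The integrin subunits Itga4, Itga6 and Itgb1 were at −0.03 (SE 0.54), 0.10 (SE 0.21) and −0.19 (SE 0.31), and Notch2, another reported midkine receptor, at −0.25 (SE 0.29). Each of these values was within 2 SE of 0. Several depended on wild-type replicate 1. Without it Sdc2, Itgb1 and Itga4 stood above 0, at 0.19 (SE 0.19), 0.29 (SE 0.16) and 1.02 (SE 0.28), and Gpc2 and Notch2 below, at −0.28 (SE 0.23) and −0.52 (SE 0.16), and Itga4 and Notch2 were then more than 2 SE from 0 (edgeR adjusted p = 0.734 in both). Sdc1 was then at 0.37, Sdc4 at 0.00, Lrp6 at −0.05, Lrp8 at −0.43 and Itga6 at 0.21. Cre-only libraries, which carry no LSL allele, also all lay above the remaining wild-type libraries for Itga4 and below them for Notch2. In that comparison 29.3% of all genes separated.

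Of the ligands that share these receptors, the ALK ligand gene Alkal2 held 0 to 6 counts in a library, and Alkal1 was not in the table. The 6 other PTPRZ1 ligands were all below 0 in Kmt2a+/LSL against wild-type (median −0.20), as were 51.6% of all genes. Among them were the matrix protein Tnc at −0.20 (SE 0.23) and the adhesion protein Cntn1 at −0.30 (SE 0.26). All 6 were also below 0 for Cre alone (median −0.23, 47.9% of all genes), which shares the wild-type libraries. Against Cre-only, 2 were below 0 and 4 above in Kmt2a+/LSL (median 0.04). Without wild-type replicate 1, 5 of 6 were below 0 in Kmt2a+/LSL (median −0.13) and for Cre alone (median −0.24), with Tnc at −0.06 and Cntn1 at 0.05 in the former. Tnr, another tenascin, ranged from 0 to 737 counts within wild-type, so its value of −2.31 (SE 2.13) has little precision. L1cam, also of these 6, held only 6 to 21 counts in a library, so its sign carries little weight. Downstream, the PTPRZ1 substrates Fyn, Ctnnb1 and Git1 were at −0.08 (SE 0.16), −0.01 (SE 0.22) and 0.18 (SE 0.41), and the ALK adaptor Frs2 at −0.19 (SE 0.27). Leaving out wild-type replicate 1 gave −0.04, −0.20, −0.21 and 0.15 for these, and Tnr was then at −2.90 (SE 1.71).

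The genes on either side of Mdk had no called difference either. Chrm4, 1116 bases away and encoding a muscarinic receptor, was at −0.85 (SE 0.87) in Kmt2a+/LSL against wild-type, but on only 2 to 51 counts in the wild-type libraries, and at −1.35 (SE 0.66) without its replicate 1. Dgkz, 526 bases away and encoding a diacylglycerol kinase, was at 0.17 (SE 0.58) in Kmt2a+/LSL against wild-type, and at −0.29 (SE 0.32) without that library. The genes most like Mdk over the 12 libraries, among 11671 with a mean of at least 50 counts, were Islr (r = 0.88), Cpxm2 (0.878), Scg5 (0.869), 2810039B14Rik (0.864) and Gpx7 (0.863). This list was not stable, as 0 to 4 of the 5 stayed when 1 library was left out and 1 of 5 with Spearman rho.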

How the data were processed

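Poly(A) RNA of 12 mNPC libraries was sequenced, 3 for each of 4 genotypes. The authors pseudoaligned the reads with kallisto 0.48.0 and deposited estimated counts per gene as whole numbers, not normalized. The submitters' processing notes also name DESeq2 1.42.0. All 12 columns were used. The tests had been planned for read counts and were run on the estimated counts as they are. Pseudoalignment shares reads among isoforms and similar genes by estimation, so the counting error of a gene is not strictly that of its count. Strand in the counting was not given in the sources used here.

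Symbols, positions, exon lengths and GC content came from the GRCm38 annotation, which named 18735 of 18911 genes. A gene was kept in a fit where its total exceeded 10 counts and 2 or more libraries held counts, which left 16655 or 17076 genes. TMM-scaled counts were tested in R 4.3.3 with the quasi-likelihood test of edgeR 4.0.16, with Benjamini-Hochberg adjustment over all genes and a threshold of 0.05. A fit of 9 libraries (without Cre-only) served Kmt2a+/LSL against wild-type and Cre-LSL against Kmt2a+/LSL, and a fit of 12 the rest. DESeq2 1.42.0 and limma 3.58.1 (voom with sample quality weights) were alternatives. Log2 CPM used a prior count of 2. The exact permutation tests of single genes were two-sided.

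The members and gene lists were chosen with earlier results of these data known. Named were every member, a set list of pathway genes, the neighbours of Mdk, the 5 genes with the highest r to it, and Kmt2a. The Mdk-like genes and neighbours are descriptions.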

Additional observations from a re-analysis of the deposited data

Results flagged for a closer look

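For Ptprz1, every Kmt2a+/LSL library lay above the mean log2 level of wild-type, and every Cre-LSL library lay below that of Cre-only. The difference between the LSL effects with and without nestin-Cre was −0.27 (SE 0.45, edgeR adjusted p = 0.9999), so it did not pass the test. Without wild-type replicate 1 it was 0.07 (SE 0.21), and every Kmt2a+/LSL library (1727 to 1948 normalized CPM) then lay below both remaining wild-type libraries (2317 and 2269), so the first of these directions turned.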

How the results depend on the processing

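The 42 member fold changes were recomputed under 883 alternative values, and none passed the threshold. The lowest adjusted p over the members other than Mdk was 0.449, for Lrp1 in Kmt2a+/LSL against wild-type (up to 1 over its 20 alternatives) by DESeq2 without wild-type replicate 1, an alternative chosen after seeing the data, as were the GC offset and the overlap counts and pathway values without that library. The sign differed from the one reported in 109 of these values, of which 96 moved by less than the SE and were not counted as reversals. As a description, Mdk ranged from −1.15 to −0.36 for Kmt2a+/LSL against wild-type, 0.55 to 0.96 for Cre-LSL against Kmt2a+/LSL, −1.19 to −0.82 for Kmt2a+/LSL against Cre-only, −0.44 to −0.07 for Cre-LSL against Cre-only and 0.12 to 0.91 for the difference of the LSL effects, and from −0.15 to 0.62 for Cre alone, where 5 of 22 values changed sign. Ncl reversed under limma-voom with sample quality weights, which changes the test and the weight of each library together, to 0.50 in Kmt2a+/LSL against wild-type, 0.30 for Cre alone and −0.31 for the difference of the LSL effects, and under DESeq2 without wild-type replicate 1, to 0.60, 0.44 and −0.32. Ptprz1 for Cre alone reversed to −0.36 in the latter. With single libraries left out, the ranges for Ncl were −0.59 to 0.61, −0.73 to 0.44 and −0.35 to 0.84, for Ptprz1 with Cre alone −0.35 to 0.23, and for Alk −1.02 to 1.1 against wild-type in Kmt2a+/LSL and −0.56 to 1.3 for Cre alone. The Ncl and Ptprz1 reversals came without wild-type replicate 1 and those of Alk without wild-type replicate 3.

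Of all genes, DESeq2 called 7 in Kmt2a+/LSL against wild-type, 6 in Cre-LSL against Kmt2a+/LSL, 3 against Cre-only, 3 for Cre alone, 4 in Kmt2a+/LSL against Cre-only and 10 for the difference of the LSL effects. Without wild-type replicate 1 these were 13, 5, 5, 5, 3 and 7. The 1 gene edgeR called in Kmt2a+/LSL against Cre-only became 0 with DESeq2 size factors, no filter or a replicate block, 2 with those genotypes alone or a GC offset, 4 with limma-voom and sample quality weights and 0 to 2 with single libraries left out. Cre-LSL against Kmt2a+/LSL gave 1 with limma-voom and those weights or with a GC offset. The cause of these changes was not tested. Deviations of same-numbered libraries had a mean correlation of 0.137 (−0.136 to 0.588 over 18 pairs), against −0.0653 (−0.578 to 0.449 over 36 pairs) for different numbers, and not every same-numbered pair was above 0.1, so the numbers were not taken as pairs. With the replicate block Mdk was at −0.70 in Kmt2a+/LSL against wild-type, and no member was called. At the counts of Alk no difference could be measured. Requiring 10 counts in each library removed Alk.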
